A study of Mus musculus with 10 samples.

Results

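The laminin chains Lama1, Lama3, Lama5, Lamb1, Lamb2, Lamb3 and Lamc1 and the nidogens Nid1 and Nid2 were followed in the ectoderm of mouse forelimb buds with and without Sp8 and Sp6, zinc finger transcription factors of the limb ectoderm. These 9 genes are defined by their symbols, and all 9 were found among the 55401 gene rows of the count table. The table holds 6 RNA sequencing libraries of E9.75 embryos (mid-gestation, at the start of limb outgrowth): 3 with Sp8 and Sp6 both knocked out (DKO) and 3 from wild-type littermates (WT). A replicate took the ectoderm of about 2 buds, which was freed by 20 min of cold 0.25% trypsin and forceps. The labels give the genotypes but no allele, strain or litter, and they do not say which embryos gave which library. Libraries are named by group and the number in their column: WT 32, WT 53, WT 56, DKO 17, DKO 40 and DKO 41. Another 4 samples of E10.5, lacking Sp6 or WT, were not analysed here.

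The libraries held 64432348 to 87040786 counts. Sp8 was at 2.38 to 5.86 CPM (counts scaled to library size) in the DKO libraries against 31.3 to 43.2 CPM in WT, and Sp6 at 13.9 to 133 and 228 to 320 CPM, lower in each DKO library for both; Sp8 was called (adjusted p = 0.000811) and Sp6 was not (0.206). Exons of Sp6 share 3329 of their 3841 bases with Gm11532, and without strand information reads there cannot be assigned. The 12 ectoderm markers had counts in every library and summed to 2280 to 3110 CPM in DKO and 3700 to 4030 CPM in WT. Of the 12, Epcam, Cdh1 and Perp were called lower in DKO (2.81% of all genes tested) and Krt8 higher (1.70%). Krt5 had the largest fall, from a WT mean of 312 to a DKO mean of 28.6 CPM, and was not called (edgeR adjusted p = 0.0632). Each DKO library lay below each WT library for 7 of the 12 (11.3% of all genes tested) and above for 1 (10.6%). Endothelial markers summed to at most 1.98 CPM in any library, and the endothelial cadherin Cdh5 had 0 counts in all 6. Summed blood markers overlapped between the groups, at 0.116, 301 and 0 CPM in WT 32, WT 53 and WT 56 and 27, 127 and 918 CPM in DKO 17, DKO 40 and DKO 41. Such tissue libraries cannot tell fewer cells of a type from less RNA per cell.

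Laminins are secreted trimers of 1 alpha, 1 beta and 1 gamma chain, built inside the cell and assembled into a sheet on its basal surface, where integrins and dystroglycan hold them. Trimers are named by their chains: laminin-111 holds alpha 1, beta 1 and gamma 1 and is the main laminin of early embryos, laminin-511 holds alpha 5 in place of alpha 1, and laminin-332 anchors the epidermis through hemidesmosomes. Nidogens bind the gamma 1 chain and link the laminin sheet to type IV collagen and perlecan. In the limb bud this basement membrane lies between the ectoderm and the mesenchyme, and alpha 5 laminin and the nidogens are known from mouse mutants to be needed for the limb ectoderm and its ridge to keep their form.

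Of the 9 genes, Nid2 was higher in DKO by edgeR's quasi-likelihood test (adjusted p = 0.0224) and 0 were lower. All 9 passed the filter on low counts. Across the 19126 genes tested, 4.51% were called, 1.70% higher and 2.81% lower. At an unadjusted p under 0.05, 4 of the 9 passed (Nid2, Lamb1, Lamb3 and Lamc1), against 3448 of the 19126 genes (18%). DESeq2 called 3 (Nid2 higher, Lamb1 and Lamb3 lower; 9.63% of all genes by that tool) and limma-voom called 0 (3.29%). The groups did not overlap in 4 genes: each DKO library lay above each WT library for Nid2 and Lama1 (10.6% of all genes) and below for Lamb1 and Lamb3 (11.3%). The log2 fold changes (DKO minus WT) ran from -0.86 in Lamb3 to 1.92 in Nid2 with a median of -0.26, where the median over all genes tested was 0.03.

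**Figure D1:**
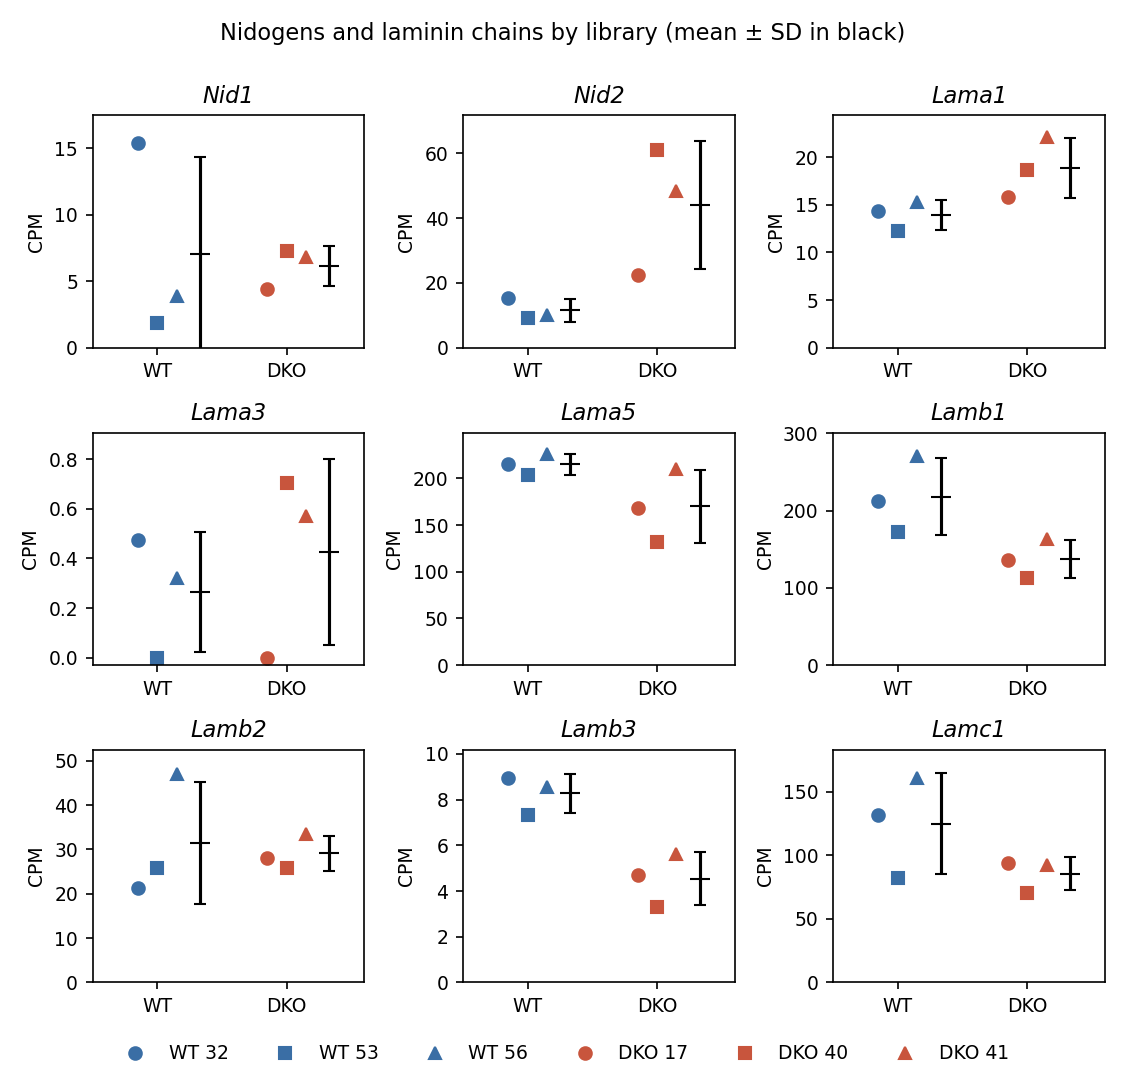
Level of each of the 9 genes in CPM (y axis, from 0, a separate scale in each panel) in the 3 WT libraries (blue) and 3 DKO libraries (red); black marks are mean ± SD, and a lower bar can run below 0. Nid2 stands at 22.5 to 61.2 CPM in DKO against 9.11 to 15.5 CPM in WT, while the Nid1 groups overlap only through the high value of WT 32.

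Nid2 (ENSMUSG00000021806.4; GRCm38 chromosome 14, 19751265 to 19811787, plus strand) encodes nidogen 2. It was at 15.5, 9.11 and 9.97 CPM in WT 32, WT 53 and WT 56 and at 22.5, 61.2 and 48.4 CPM in DKO 17, DKO 40 and DKO 41. The lowest DKO library was above the highest WT library, and DKO 40 and DKO 41 were more than 2-fold above DKO 17. The mean rose 3.82-fold, from 11.5 ± 3.48 to 44.1 ± 19.7 CPM (SD, n = 3 each), with a log2 fold change of 1.92 (SE 0.367, 95% interval 1.09 to 2.75, edgeR adjusted p = 0.0224). The call rested on 577 to 4686 counts a library. It held without DKO 17 (log2 fold change 2.23, adjusted p = 0.00386), and was lost without any other single library: the adjusted p was 0.099 without DKO 40, 0.0563 without DKO 41, 0.0615 without WT 32, 0.0788 without WT 53 and 0.117 without WT 56, with log2 fold changes of 1.61 to 2.17. Exons of Nid2 share 437 of their 5174 bases with Rtraf, an RNA-binding protein gene, and without strand information reads there cannot be assigned; the Rtraf means were 170 ± 16.8 CPM (WT) and 181 ± 20.8 CPM (DKO), adjusted p = 0.767.

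Nid1 (ENSMUSG00000005397.8; chromosome 13, 13437551 to 13512269, plus strand), the nidogen first isolated with laminin-111, was at 15.4, 1.89 and 3.91 CPM in WT 32, WT 53 and WT 56. In DKO 17, DKO 40 and DKO 41 it was at 4.39, 7.25 and 6.78 CPM. The DKO libraries lay inside the range of the WT libraries, which was set by WT 32. The WT mean of 7.06 ± 7.26 CPM and the DKO mean of 6.14 ± 1.53 CPM gave a log2 fold change of -0.26 whose 95% interval, -1.63 to 1.11, covers more than a 2-fold change either way (adjusted p = 0.873). Without WT 32 its sign turned, to 0.99 (adjusted p = 0.336). Exons of Nid1 share 143 bases with the predicted gene Gm48682.

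Markers of limb mesenchyme, the tissue under the ectoderm that also makes nidogens, varied between these libraries. The list of 12 summed to 236 to 526 CPM in DKO and 393 to 433 CPM in WT. Most of it came from Col1a2 and Prrx2 in DKO and from Col1a2, Pdgfra and Prrx2 in WT. Pdgfra was at 2.57 to 10.3 CPM in DKO and 37.4 to 94.5 CPM in WT. All 12 had counts in each DKO library and in WT 32, while Lum was at 0 in WT 53 and Lum, Fgf10 and Hand2 were at 0 in WT 56. Pdgfra was called lower in DKO (edgeR adjusted p = 0.00699), and 0 of the 12 were called higher. Over all genes tested, 2.81% were called lower and 1.70% higher. Col1a2 was at 99.7 to 173 CPM in DKO against 204 to 316 CPM in WT (edgeR adjusted p = 0.0705). Of the 12, 3 were higher in each DKO library than in each WT library (Twist2, Twist1 and Prrx2), against 10.6% of all genes tested. Another 2 were lower in each (Pdgfra and Col1a2), against 11.3%. The basic helix-loop-helix gene Twist2 was at 7.39, 2.31 and 0.549 CPM in WT 32, WT 53 and WT 56 and at 12.3, 67.1 and 26.1 CPM in DKO 17, DKO 40 and DKO 41 (adjusted p = 0.0777). Its order over the DKO libraries was that of Nid2, with DKO 40 highest and DKO 17 lowest, and in WT both were highest in WT 32. Between WT 53 and WT 56 they differed: Nid2 was lower in WT 53 (9.11 against 9.97 CPM) and Twist2 higher. In DKO 17, DKO 40 and DKO 41, Twist1 was at 20.4, 46.7 and 21.4 CPM, the same order as Nid2. Prrx2 was at 83, 174 and 65.4 CPM there, with DKO 41 lowest. Twist2 was the marker of the 12 with the highest correlation with Nid2. The homeobox gene Prrx1 was at 29.0 CPM in WT 32 and at 1.61 and 0.412 CPM in the other WT libraries, against 3.51, 23.3 and 12.8 CPM in DKO 17, DKO 40 and DKO 41.

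Over the 6 libraries, log2 CPM of Nid2 had a Pearson r with the 12 markers of -0.64 (Pdgfra) to 0.93 (Twist2), positive for 9, and Nid1 of -0.44 (Col1a1) to 0.78 (Prrx1), positive for 10. These are descriptions over 6 points that share library and group. WT 32 and DKO 40 were the libraries of each group with the most Prrx1, a pair chosen after seeing the data. With both left out, the log2 fold change of Nid2 was 1.88, against 1.92 with all libraries, and was not called (edgeR adjusted p = 0.183). Calls over all genes also fell in that fit, so the lost call cannot speak to mesenchymal RNA. A fit with as many libraries, without WT 53 and DKO 17, kept the call of Nid2 (log2 fold change 2.1, edgeR adjusted p = 0.0101). That pair was also chosen after seeing the data. The part of mesenchymal RNA in the rise of Nid2 was not tested.

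**Figure D2:**
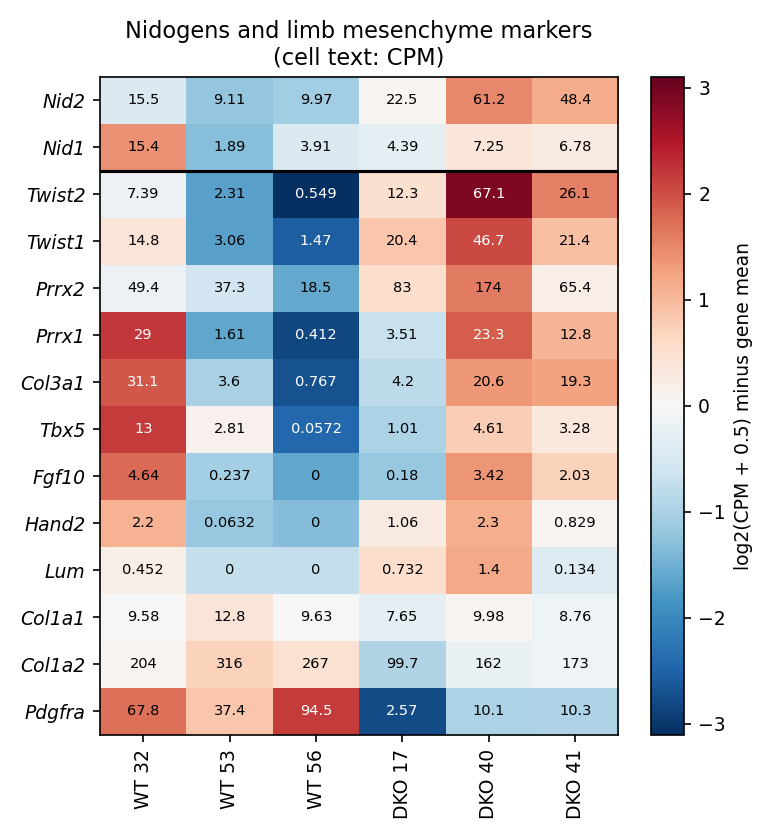
Nid2, Nid1 (above the line) and the 12 limb mesenchyme markers (rows) in the 6 libraries (columns); colour is log2(CPM + 0.5) minus the gene's mean over the libraries, and each cell prints the CPM. Twist2, Twist1 and Prrx2 are higher in each DKO library than in each WT library, as Nid2 is, whereas Pdgfra and Col1a2 are lower in each. Prrx1, Col3a1 and Tbx5 are highest in WT 32, as Nid1 is.

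Among the alpha chains, Lama5 (ENSMUSG00000015647.9; chromosome 2, 180176373 to 180225859, minus strand) was the most abundant. This chain of laminin-511 had 215, 204 and 226 CPM in WT 32, WT 53 and WT 56. It had 168, 132 and 210 CPM in DKO 17, DKO 40 and DKO 41. DKO 41 lay within the WT range and the other DKO libraries below it. The WT mean of 215 ± 11.2 CPM and the DKO mean of 170 ± 39.0 CPM gave a log2 fold change of -0.34 (95% interval -0.71 to 0.03, adjusted p = 0.316).

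Lama1 (ENSMUSG00000032796.8; chromosome 17, 67697259 to 67822647, plus strand), the alpha chain of laminin-111, was at 14.3, 12.2 and 15.3 CPM in WT 32, WT 53 and WT 56 and at 15.8, 18.6 and 22.1 CPM in DKO 17, DKO 40 and DKO 41. Each DKO library was above each WT library, by little for DKO 17 against WT 56. The means of 13.9 ± 1.6 and 18.9 ± 3.16 CPM gave a log2 fold change of 0.43 (95% interval -0.01 to 0.88) that did not pass the threshold (adjusted p = 0.291).

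Lama3 (ENSMUSG00000024421.16; chromosome 18, 12333819 to 12583013, plus strand), the alpha chain of the epidermal laminin-332, was hardly present. It had 41, 0 and 28 counts in WT 32, WT 53 and WT 56 and 0, 54 and 51 counts in DKO 17, DKO 40 and DKO 41. Where it had 0 counts, a level of up to 0.0474 CPM (WT 53) or 0.036 CPM (DKO 17) is still possible, taking 3 counts as the limit for counting error alone. The highest library, DKO 40, was at 0.706 CPM, and the groups overlapped (log2 fold change 0.54, 95% interval -1.6 to 2.67, adjusted p = 0.83). Of the alpha chains outside the 9 genes, Lama4 of vessel walls was at 0.275 to 1.85 CPM over the 6 libraries (adjusted p = 0.886). Lama2 of muscle had counts in WT 32, WT 56 and DKO 17 only, at most 0.822 CPM, and was not tested.

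The beta chain Lamb1 (ENSMUSG00000002900.17; chromosome 12, 31265234 to 31329644, plus strand), shared by laminin-111 and laminin-511, was at 212, 172 and 271 CPM in WT 32, WT 53 and WT 56. It was at 136, 113 and 163 CPM in DKO 17, DKO 40 and DKO 41. The groups did not overlap, with DKO lower, and DKO 41 and WT 53 were the closest. The means were 218 ± 49.6 and 138 ± 24.7 CPM, and the log2 fold change of -0.67 (SE 0.187, 95% interval -1.09 to -0.24) was not called (edgeR adjusted p = 0.0873, against 0.0176 by DESeq2). With single libraries left out its adjusted p was 0.0636 to 0.306.

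Lamb3 (ENSMUSG00000026639.18; chromosome 1, 193207699 to 193343878, plus strand) is the beta chain of laminin-332. Its 8.96, 7.31 and 8.54 CPM in WT 32, WT 53 and WT 56 stood above 4.71, 3.32 and 5.6 CPM in DKO 17, DKO 40 and DKO 41. The log2 fold change was -0.86 (SE 0.258, 95% interval -1.44 to -0.28, edgeR adjusted p = 0.105; 0.0284 by DESeq2). For Lamb1 and Lamb3 the unadjusted interval leaves out 0, while the p adjusted over all genes misses the threshold.

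Lamb2 (ENSMUSG00000052911.9; chromosome 9, 108479736 to 108490530, plus strand), a beta chain best known from the kidney filter and the nerve-muscle synapse, had overlapping groups. It was at 21.2, 25.9 and 47.1 CPM in WT 32, WT 53 and WT 56 and at 28, 25.8 and 33.5 CPM in DKO 17, DKO 40 and DKO 41. WT 56 was the highest library, and without it the log2 fold change turned from -0.11 (95% interval -0.75 to 0.52, adjusted p = 0.882) to 0.30.

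Lamc1 (ENSMUSG00000026478.14; chromosome 1, 153218922 to 153332786, minus strand) encodes the gamma chain of most laminins and the one that nidogens bind. It was at 132, 82.5 and 161 CPM in WT 32, WT 53 and WT 56 and at 93.8, 70.8 and 92.2 CPM in DKO 17, DKO 40 and DKO 41. WT 53 lay within the DKO range. The log2 fold change was -0.55 (95% interval -1.07 to -0.04, adjusted p = 0.242), and ran from -0.33 without WT 56 (adjusted p = 0.625) to -0.77 without WT 53 (0.059).

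The summed ectoderm markers were lower in each DKO library than in each WT library (2280 to 3110 against 3700 to 4030 CPM), and their part in the lower levels of Lamb1 and Lamb3 was not tested. Lamc3, another gamma chain, had 14 counts in DKO 40, 26 in WT 56 and 0 in the other libraries, and was not tested.

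**Figure D3:**
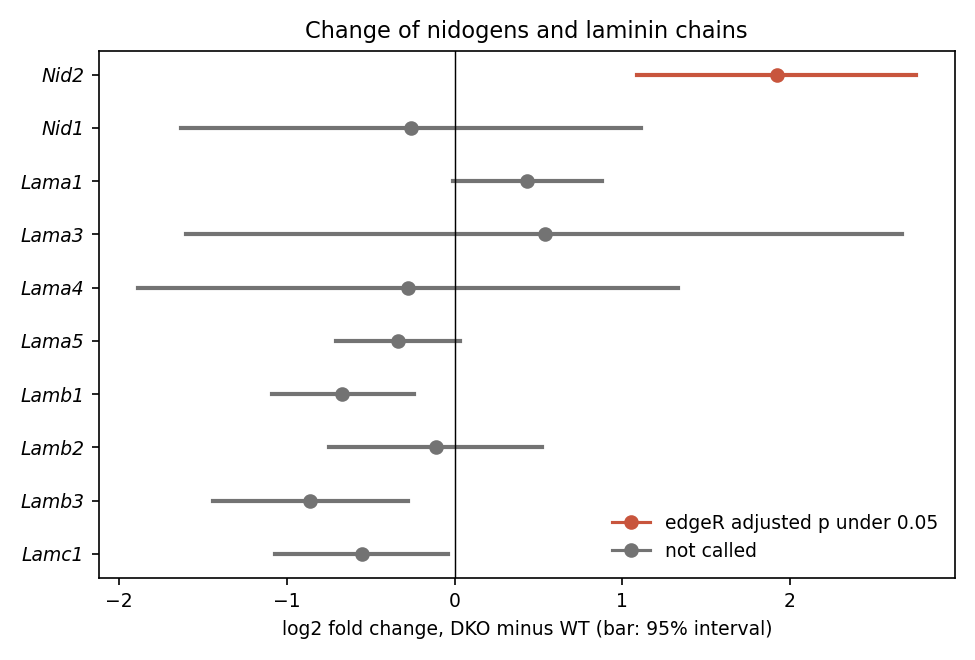
Log2 fold change, DKO minus WT (x axis), of the nidogens and 8 laminin chains; points are edgeR estimates and bars their 95% intervals. Nid2 (1.92) is called, and Lama3, Lama4 and Nid1 have the widest bars.

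Levels can be compared between genes after division by exon length, here CPM per kb of all annotated exons, which understates a gene whose long or alternative exons are little used. In WT the order was Lamb1 (22 ± 5.0), Lama5 (18.9 ± 0.979), Lamc1 (15.1 ± 4.80), Lamb2 (5.16 ± 2.27), Nid2 (2.23 ± 0.673), Lama1 (1.44 ± 0.166), Lamb3 (1.25 ± 0.130) and Nid1 (1.02 ± 1.05), all in CPM per kb. The libraries of neighbours in this order overlapped from Lamb1 through Lamc1, and again from Lama1 through Nid1. Lamc1 and Lamb2, Lamb2 and Nid2, and Nid2 and Lama1 did not overlap. Lama4, Lama3, Lama2 and Lamc3 came last, at 0.0880, 0.0247, 0.0231 and 0.0163 CPM per kb. So of the chains of laminin-332, beta 3 was at 1.25 and alpha 3 at 0.0247 CPM per kb. In DKO, Lama5 (14.9 ± 3.42), Lamb1 (13.9 ± 2.49) and Lamc1 (10.3 ± 1.55) led, Nid2 came next (8.51 ± 3.81), and Lamb2 (4.79 ± 0.655) followed. These 5 means are not ordered alike in each library: Nid2 was the highest of them in DKO 40, at 11.8 CPM per kb, and the lowest in DKO 17, at 4.35.

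The same per-length levels give the make-up of the alpha chains, the beta chains and the nidogens. Lama5 made up 91.7 to 93.0% of the alpha chains in WT and 85.0 to 89.2% in DKO. Lama1 made up 6.54 to 7.37% and 9.89 to 14.2%. Alpha 5 was the main chain in all 6 libraries, with a larger alpha 1 share in each DKO library than in each WT library. Lamb1 made up 75.1 to 81.6% of the beta chains in WT and 70.7 to 72.2% in DKO, and Lamb2 13.3 to 21.3% and 24.1 to 26.2%. Nid2 was the larger part of the nidogens in each library, 57.6% in WT 32, 86.6% in WT 53 and 77.4% in WT 56, against 87.3 to 91.9% in DKO.

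**Figure D4:**
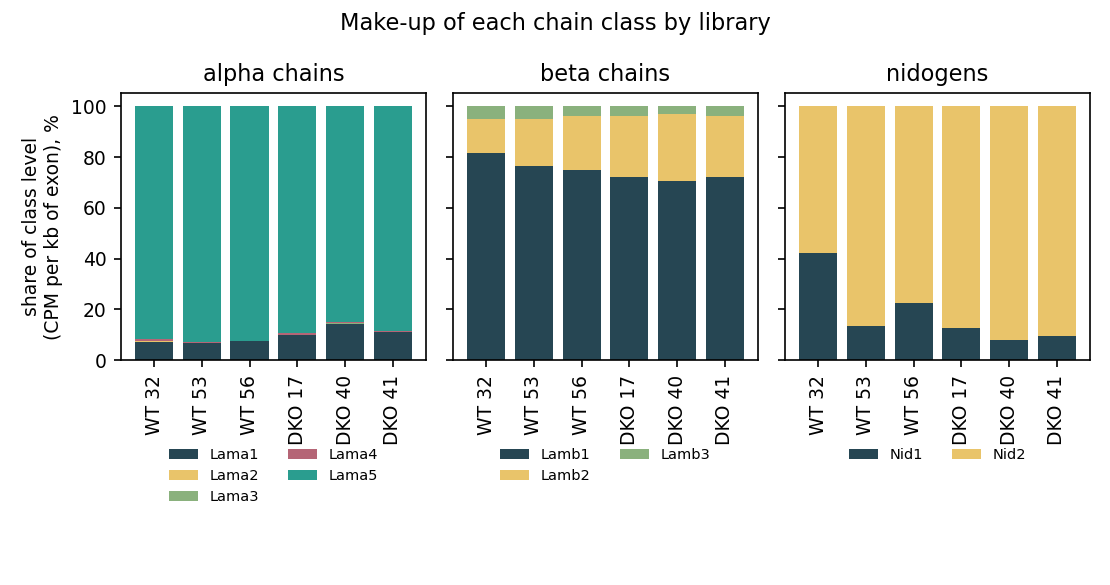
Share (y axis, percent of the class sum of CPM per kb of exon) of each gene in the alpha chains, beta chains and nidogens, 1 bar per library (x axis). Lama5 and Lamb1 fill most of their classes in all 6 bars, and the Lama1 part is 6.54 to 7.37% in the WT bars and 9.89 to 14.2% in the DKO bars.

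Ratios within a library do not depend on how libraries are scaled, and 4 were compared between the groups with a two-sided exact permutation test, in which 3 against 3 libraries cannot give a p below 0.1. The log2 ratio of Lama1 to Lama5 was -3.72 ± 0.0968 in WT and -2.92 ± 0.303 in DKO, a difference of 0.80 with no overlap (exact p = 0.1, 0.133 after Benjamini-Hochberg adjustment over the 4 ratios). That of Lamb1 to Lamb2 was 2.15 ± 0.416 and 1.53 ± 0.0851, a difference of -0.63 (the same exact p values). That of Nid1 to Nid2 was -1.63 ± 1.13 and -3.18 ± 0.366, a difference of -1.55 (the same exact p values), and the closest libraries, WT 53 at -2.69 and DKO 17 at -2.78, nearly met. Without WT 32 this difference was -0.95, and that of Lamb1 to Lamb2 was -0.39. The ratio of Lama5 to Lamc1 overlapped between the groups, with 0.37 ± 0.421 in WT and 0.51 ± 0.185 in DKO (exact p = 0.6). The first 3 ratios did not overlap between the groups, which by itself fixes the exact p at 0.1, so this p adds nothing. Each of them holds a gene whose own levels did not overlap (Lama1, Lamb1 or Nid2). How often ratios of other genes separate the groups was not tested.

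Over the 6 libraries the laminin chains and nidogens fell into patterns that are given as descriptions, since the points share groups and depth. Lamb1 followed Lamb3 (Pearson r of log2 CPM 0.93), Lamc1 (0.92) and Lama5 (0.88). Lama1 followed Nid2 (0.87) and ran against Lamb3 (-0.56). Nid2 ran against Lamb3 (-0.82) and Lamb1 (-0.73). Nid1 and Nid2 had an r of 0.46. Of 10951 other genes averaging at least 5 CPM, the 5 closest to Nid2 were Tsc22d3, Zfpm1, Synj2bp, Tmem219 and Zbtb8os (r 0.9891 to 0.9973), of which Zfpm1 was called higher in DKO (log2 fold change 1.13, adjusted p = 0.0328). The 5 closest to Lamb1 were Ehmt1, Lats2, Hmgxb3, Rnf111 and Dsg2 (r 0.9899 to 0.9997), with 0 called by edgeR.

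Of the genes whose products share the sheet with laminins and nidogens, 25 of 27 were tested, 2 were higher in DKO and 5 lower (median log2 fold change -0.29). Over all genes tested, 1.70% were higher and 2.81% lower (median 0.03). The rises were in Col4a6 and Col4a5, which lie side by side on the X chromosome and encode type IV collagen chains, the partner network of nidogens. Col4a6 rose 5.77-fold, from 11.1 ± 3.07 to 64.1 ± 12.6 CPM (adjusted p = 0.000811), and Col4a5 3.15-fold, from 20.0 ± 2.01 to 62.9 ± 16.7 CPM (adjusted p = 0.00375). The ubiquitous chains Col4a1 and Col4a2 were not called, with log2 fold changes of -0.40 and -0.81. Perlecan (Hspg2), which nidogens also bind, had a WT mean of 61.8 ± 9.57 CPM and a DKO mean of 74.4 ± 22.2 CPM (adjusted p = 0.592).

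The falls were in Col17a1, the hemidesmosome collagen (9.87-fold, 14.9 ± 4.75 to 1.51 ± 1.32 CPM), Frem1 of the Fraser complex (4.44-fold), the laminin-related netrin gene Ntn1 (4.28-fold), and the fibulins Fbln2 (3.28-fold) and Fbln1 (1.71-fold, from 225 ± 10.7 CPM). Their adjusted p values were 0.0112, 0.00519, 0.0131, 0.0178 and 0.00676. Col4a5, Fbln1, Col4a1, Col4a2 and Hspg2 and the receptor gene Dag1 fall outside the naming rule and were chosen after their values were seen. Fbln2 and Ntn1 lost their calls without DKO 40, WT 32 or WT 56 (adjusted p up to 0.106 and 0.0844), and Col17a1 without WT 32 or WT 56 (up to 0.0576). Col17a1 was at 2.45, 0 and 2.07 CPM in DKO 17, DKO 40 and DKO 41, and it was not called by DESeq2 (adjusted p = 0.277) or limma-voom (0.118), with the older edgeR fit (legacy=TRUE, 0.21) or without the low-count filter (0.0505). Lower partners numbered 2 with WT 32 or WT 56 left out, 3 with DKO 40, 5 with DKO 17 or WT 53 and 7 with DKO 41 left out, while higher partners numbered 2 in each case. Calls over all genes also changed in these fits, over the range given in the closing section. Such shifts, here and in the lists below, thus cannot be read as particular to the listed genes.

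Among 15 laminin receptors and their linkers, 14 were tested, 3 were lower and 1 higher (median log2 fold change -0.33). The shares of all genes tested were 2.81% lower and 1.70% higher (median 0.03). The hemidesmosome integrin is made of Itga6 and Itgb4 and binds laminin-332 and laminin-511. Itgb4 fell 3.99-fold, from 16.3 ± 0.394 to 4.08 ± 1.39 CPM (adjusted p = 0.00456), and Itga6 2.59-fold, from 93.3 ± 18.1 to 36.0 ± 15.6 CPM (adjusted p = 0.0377). Itga2, a subunit of a collagen and laminin integrin, was at 0.569 ± 0.269 CPM in WT (22 to 75 counts a library). It had 0 counts in all 3 DKO libraries (edgeR adjusted p = 0.0401). A floor of 3 counts over the DKO group puts it 47.3-fold lower, which allows for counting error only. Zeros can go beyond that error here: Col17a1 had 0 counts in DKO 40 beside 204 in DKO 17 and 185 in DKO 41. Rpsa, a ribosomal protein gene also described as a laminin receptor, rose 1.48-fold from 1074 ± 87.6 CPM (adjusted p = 0.0371); reads of its processed copies elsewhere in the genome could be counted with it. The calls of Itga6 and Itga2 were lost without most single libraries: Itga6 without any but DKO 17 (adjusted p up to 0.164), Itga2 without any of the 6 (up to 0.136), and Rpsa without any but DKO 41 (up to 0.193). The count of lower receptors was 2 without DKO 17 or DKO 41 and 1 without any other single library. Exons of Itgb4 overlap those of B230344G16Rik by 537 bases. Dystroglycan (Dag1) had a WT mean of 468 ± 72.1 CPM and a DKO mean of 369 ± 112 CPM (adjusted p = 0.432).

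The 13 genes that build the laminin-binding sugar chain of dystroglycan were all tested and 0 were called by edgeR (median log2 fold change 0.04). By edgeR 5 had an unadjusted p under 0.05, against 18% of all genes tested. DESeq2 called 2 (9.63% of all genes by that tool) and limma-voom 0 (3.29%). The 2 most abundant were Pomgnt1, with a WT mean of 178 ± 20.5 CPM and a DKO mean of 132 ± 18.2 CPM (adjusted p = 0.135), and the sugar-chain polymerase gene Large2, with means of 77.3 ± 4.11 and 103 ± 7.82 CPM (adjusted p = 0.0845). Without WT 53, 1 of the 13 was called higher.

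A list of 16 genes held proteases that act on basement membranes, their inhibitors, and the heparan sulfate enzymes Hpse, Sulf1 and Sulf2. Of these 16, 14 were tested, 3 were lower and 0 higher (median log2 fold change -0.32). Among all genes tested, 2.81% were lower and 1.70% higher (median 0.03). The versican protease gene Adamts20 fell 23.9-fold, from 19.6 ± 1.61 to 0.820 ± 0.689 CPM (adjusted p = 0.00076), the inhibitor Timp3 4.36-fold, from 24.7 ± 5.28 to 5.66 ± 2.56 CPM (adjusted p = 0.00884), and the gelatinase Mmp2 2.14-fold, from 134 ± 30.8 to 62.6 ± 19.4 CPM (adjusted p = 0.0401). Exons of Timp3 overlap those of Syn3 by 1733 bases. Mmp2 lost its call without any of the 6 libraries (adjusted p 0.0501 to 0.153), while Adamts20 and Timp3 kept theirs. Leaving out DKO 41 gave 4 lower genes and 1 higher; leaving out any other 1 gave 2 lower genes and 0 higher.

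**Figure D5:**
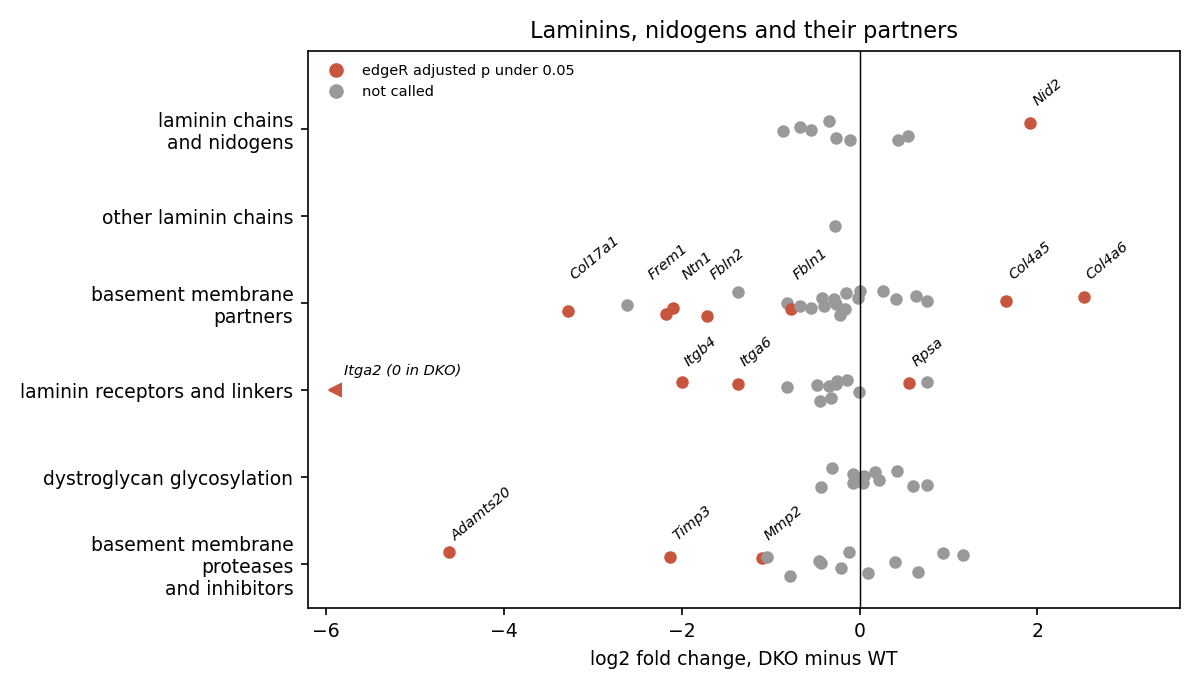
Log2 fold change, DKO minus WT (x axis), in 6 groups of tested genes (rows): the laminin chains and nidogens, another laminin chain (Lama4), and 4 lists of partner genes; red points are called and named, grey points are not. Nid2, Col4a5, Col4a6 and Rpsa are the called genes right of 0, and Itga2, at 0 counts in DKO, is drawn as an arrow at the left edge. The row of proteases and inhibitors also holds the heparan sulfate enzymes Hpse, Sulf1 and Sulf2.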

How the data were processed

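The deposited table holds raw counts, whole numbers for each gene in 6 libraries. Per the submitters' processing notes the tools included HISAT2, StringTie, Cufflinks, fastp, FastQC and DESeq2, and the builds GRCm38 and mm10; their versions and the counting step were not given in the sources used here. Per the labels' protocols, libraries were made with SMART-Seq v4 and Nextera XT, which keeps no strand and no molecular identifiers, so floors and counts carry PCR copies and floors cover counting error only. Columns were matched to groups by name; their numbers are not the replicate numbers of the labels. Nothing says which embryos gave a library, and p-values thus reflect only the spread among these libraries, which may be technical. Each pair of libraries differed by more than sampling noise (chi-square per degree of freedom 56 or more).

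Changes were tested with edgeR 4.0.16 in R 4.3.3 (filterByExpr, TMM, glmQLFit with robust=TRUE and legacy=FALSE, quasi-likelihood F test). The test covered all 19126 genes that passed the filter, with Benjamini-Hochberg adjustment and a call at an adjusted p under 0.05. The fit was tested on simulated data with the same dispersion for every gene, which cannot check its calls in these libraries. CPM were scaled by TMM. Log2 fold changes are DKO minus WT, and intervals are unadjusted. Positions, exon lengths and overlaps came from GENCODE M21 of GRCm38, matched for 99.53% of rows. Alternatives used DESeq2 1.42.0 and limma-voom (limma 3.58.1), other scalings and filters, and libraries left out. The genes, lists and fit settings were chosen with earlier results of these data known. In each partner list all called genes were named up to 5, beyond that the 5 largest changes, and with 0 called the 2 most abundant. The genes closest to Nid2 and Lamb1, the smallest p in each direction, were taken by Pearson r of log2 CPM with a prior count of 2. Results for 1 further gene are not reported here.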

Additional observations from a re-analysis of the deposited data

How the results depend on the processing

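No paired analysis was possible because the count columns do not carry the replicate numbers of the labels. The count of the 9 genes called higher was 1 (Nid2), and 0 without the low-count filter (adjusted p of Nid2 0.0711), by limma-voom (0.0644), with WT 32 and DKO 40 or WT 32 and DKO 41 both left out, and 0 to 1 with single libraries left out. With WT 53 and DKO 17 both left out, Nid2 kept its call (log2 fold change 2.1, edgeR adjusted p = 0.0101). All of these pairs were chosen after seeing the data. The count called lower was 0, and 2 by DESeq2. Over 17 alternatives the log2 fold change of Nid2 stayed between 1.61 and 2.23. With the older quasi-likelihood fit (legacy=TRUE), Nid2 kept its call (adjusted p 0.0458), while Col17a1 (0.21), Itga6 (0.0852), Mmp2 (0.0799) and Rpsa (0.0702) lost theirs. Without the filter Col17a1, Fbln2, Itga2, Itga6, Mmp2 and Rpsa lost theirs (0.0505 to 0.122), by limma-voom Col17a1 (0.118) and Mmp2 (0.0522), and by DESeq2 Col17a1 (0.277). Over all genes 325 were called higher and 538 lower; these counts were 723 and 973 by DESeq2, 203 and 426 by limma-voom, 200 and 346 with legacy=TRUE, 116 and 296 without the filter, 13 and 61 without WT 32 and DKO 40, 95 and 282 without WT 32 and DKO 41, and 53 to 331 and 194 to 591 with single libraries left out. Without WT 32 and DKO 40, 1 partner was called higher, and 0 partners, receptors or proteases lower. Signs turned for genes that were not called. Nid1 was at 0.23 by limma-voom, 0.88 and 0.90 with WT 32 and DKO 40 or DKO 41 left out, and -0.65 to 0.99 with single libraries left out. Lama4 was at 0.72 and 0.85 with the same pairs left out and at -1.13 to 0.49 with single libraries left out, and Lamb2 at -0.36 to 0.30. The log2 ratio of Lama5 to Lamc1 differed by -0.03 to 0.38 with single libraries left out, that of Nid1 to Nid2 by -2.07 to -0.95, of Lamb1 to Lamb2 by -0.79 to -0.39 and of Lama1 to Lama5 by 0.63 to 0.92; the cause was not tested. Depth limits Lama2, Lama3, Lama4 and Lamc3, which had at most 160 counts in a library.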
